A study of Mus musculus with 18 samples.

Results

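The transcripts of 10 serine protease genes were measured by bulk mRNA sequencing in 18 mouse tumours derived from the breast cancer line PB2. The genes are the kallikreins Klk6, Klk7, Klk8, Klk10, Klk11 and Klk13, and the membrane-bound proteases Tmprss11e, St14, Prss8 and Hpn. They are 10 of the 54532 genes of the deposited count table, and 8 of them had enough counts to be tested. The set was chosen by the levels of Klk6 and Tmprss11e, which were expressed in p95HER2 tumours and near 0 in EV tumours, so the difference of these genes between the genotypes is given as a description with no test. The other members were taken as relatives, with results of these data already known.

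The 8 p95HER2 tumours overexpress a shortened HER2, a growth factor receptor with kinase activity. The 10 EV tumours are labelled only by that genotype. All mice of both groups were on the doxycycline diet DOX625, and all tumours came from the PB2 line. The sources used here do not give the promoter or species of the p95HER2 sequence, the host strain, sex or age, or whether each tumour came from its own mouse. P-values therefore measure the spread between these tumours. Tumours are named by group and number, in accession order.

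Tissue kallikreins are secreted serine proteases made as inactive zymogens and encoded side by side in a single cluster. In the outer skin they cut the proteins that hold dead cells together, and several are made in excess by human carcinomas. Matriptase (St14), hepsin (Hpn) and Tmprss11e are anchored in the plasma membrane of epithelial cells, and prostasin (Prss8) is tethered there by a lipid anchor. These enzymes can activate one another, growth factors and receptors at the cell surface, and are held in check by inhibitors such as HAI-1 (Spint1) and LEKTI (Spink5).

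The p95HER2 libraries held 32686558 to 34804640 counts and the EV libraries 35030920 to 38464541, so the totals did not overlap and the deeper group was EV. As a check of the label, mouse Erbb2, which encodes HER2, was at 158 ± 37.7 CPM in p95HER2 tumours and 67.9 ± 4.64 CPM in EV tumours (SD, n = 8 and n = 10). CPM is a gene's count scaled to a fixed library size after TMM normalization. The tag number of p95HER2 1 lies far from those of the other tumours, for a reason the labels leave unsaid. Tag numbers and library totals both ran with the group, so a difference in handling cannot be told apart from p95HER2. The tumour EV 1 stood apart by skin genes: 15 of 16 keratinocyte markers were highest there. The keratins Krt77 and Krt1 had 872 and 856 counts in EV 1, against at most 2 in any other tumour. Results that rest on EV 1 are given with and without it. In bulk tumours, fewer cells of a type and less RNA per cell cannot be told apart.

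Klk6 and Tmprss11e were the members with the widest gap. Klk6 encodes a trypsin-like kallikrein known from the brain and from human ovarian and breast carcinomas, and lies at chromosome 7, 43824499 to 43832030, on the plus strand (ENSMUSG00000050063, mm10). It had 62, 123.5 and 311 counts in the lowest, median and highest p95HER2 tumour, against 0, 1 and 10 counts in EV tumours. The lowest p95HER2 tumour thus had more than the highest EV tumour, and 2 EV tumours had no count. In CPM the gene averaged 4.36 ± 2.89 in p95HER2 tumours and 0.0792 ± 0.0986 in EV tumours (SD, n = 8 and n = 10). Its fitted log2 fold change, p95HER2 over EV, was 5.73 (SE 0.52), and the summed counts of 1179 in p95HER2 tumours and 29 in EV tumours gave a ratio per TMM-scaled library total of 55.2, with a 95% counting interval from 38.2 to 82.8 (conditional binomial, counting error only).

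Tmprss11e, a transmembrane protease also called DESC1, lies at chromosome 5, 86705186 to 86745815, on the minus strand (ENSMUSG00000054537). Its counts were 27, 44 and 124 in the lowest, median and highest p95HER2 tumour, against 1 count in EV 1 and 0 in each of the other 9 EV tumours. The only EV count thus came from the tumour with the highest skin markers. The gene averaged 1.80 ± 1.13 CPM in p95HER2 tumours and 0.00272 ± 0.00861 CPM in EV tumours. The sums of 486 counts in p95HER2 tumours and 1 in EV tumours gave a ratio per library total of 660, with a 95% counting interval from 118 to 26120, and the fitted log2 fold change of 8.17 (SE 0.55) depends on how the fit treats the zeros. Without EV 1 the EV tumours had 0 counts, and against a floor of 3 counts over the group Tmprss11e was at least 198-fold higher in p95HER2 tumours. Antisense genes annotated over Tmprss11e had 0 counts in all tumours.

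**Figure D1:**
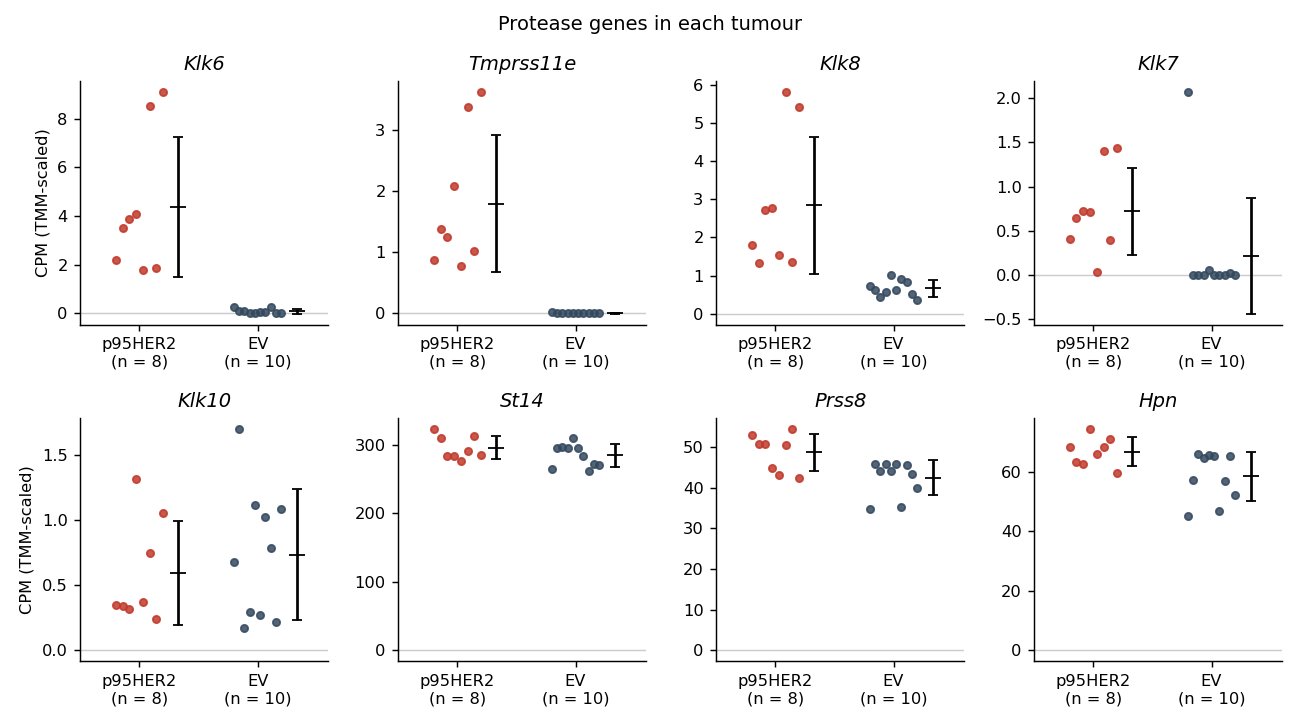
TMM-scaled CPM of the 8 tested members in each tumour, p95HER2 tumours (red, n = 8) left of EV tumours (dark, n = 10); bars give the mean and SD. The p95HER2 points of Klk6, Tmprss11e and Klk8 all lie above the EV points, Klk7 has a single high EV tumour, and the points of Klk10, St14, Prss8 and Hpn overlap.

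The promoters of Klk6 are shown with those of Klk8, which rose beside it, and of Klk10, which did not pass the test, because these genes lie within 51.0 kb of each other. Each run holds 250 bases before and 50 after the annotated start (RefSeq, GRCm38.p6, plus strand, 5′ to 3′). RefSeq lists 2 starts for Klk6, and capitals mark TTAAAA or its reverse complement TTTTAA.
Klk6, first start, chr7:43824294-43824593: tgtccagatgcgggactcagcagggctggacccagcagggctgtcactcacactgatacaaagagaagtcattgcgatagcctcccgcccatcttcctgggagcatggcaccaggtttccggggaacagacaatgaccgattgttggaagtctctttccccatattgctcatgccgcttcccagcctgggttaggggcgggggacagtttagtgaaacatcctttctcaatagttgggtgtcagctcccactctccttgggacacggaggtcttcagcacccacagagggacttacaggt
Klk6, second start, chr7:43825200-43825499: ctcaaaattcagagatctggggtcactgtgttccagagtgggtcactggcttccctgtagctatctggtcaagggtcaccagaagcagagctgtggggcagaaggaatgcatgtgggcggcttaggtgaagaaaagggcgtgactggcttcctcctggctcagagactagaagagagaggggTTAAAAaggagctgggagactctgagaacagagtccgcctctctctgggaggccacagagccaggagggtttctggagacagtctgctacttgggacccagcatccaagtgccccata
Klk8, chr7:43797327-43797626: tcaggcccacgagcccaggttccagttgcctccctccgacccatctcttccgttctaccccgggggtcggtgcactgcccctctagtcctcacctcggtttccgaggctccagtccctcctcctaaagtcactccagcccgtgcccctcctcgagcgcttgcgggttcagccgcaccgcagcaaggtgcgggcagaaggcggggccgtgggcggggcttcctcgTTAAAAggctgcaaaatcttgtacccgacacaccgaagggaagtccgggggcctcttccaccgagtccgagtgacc
Klk10, chr7:43780804-43781103: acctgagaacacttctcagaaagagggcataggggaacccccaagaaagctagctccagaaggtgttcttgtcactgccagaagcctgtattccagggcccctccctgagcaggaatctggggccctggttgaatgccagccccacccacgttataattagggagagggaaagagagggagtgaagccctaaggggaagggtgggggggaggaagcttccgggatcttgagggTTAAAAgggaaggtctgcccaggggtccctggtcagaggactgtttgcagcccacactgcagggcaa
The TTAAAA run lay 68 bases before the second Klk6 start, 26 bases before the Klk8 start and 17 bases before the Klk10 start, and so occurred beside genes that moved and a gene that did not pass. It was found in 4 of 10 member promoters, against 19.2% of the 32851 promoters of the RefSeq table, and was chosen after the sequences were seen. TGANTCA, the letters bound by AP-1 factors, read on both strands, was in none of the 10 member promoters and in 7.81% of all. Promoters were found for 7 members, Klk6, Klk7, Klk8, Klk10, Klk11, Klk13 and Hpn.

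Klk8, which encodes neuropsin, a trypsin-like kallikrein of brain and skin, was the third member with no overlap between the groups. Its counts were 43, 77.5 and 194 in the lowest, median and highest p95HER2 tumour, against 13, 23 and 39 counts in EV tumours. Unlike Klk6 it was present in all 10 EV tumours, so p95HER2 tumours had more of a transcript that EV tumours already made. It rose to 2.84 ± 1.80 CPM in p95HER2 tumours, against 0.661 ± 0.212 CPM in EV tumours, and all 8 p95HER2 tumours lay above all EV tumours. The log2 fold change was 2.10 with an SE of 0.30 (edgeR BH-adjusted p = 0.000313). Klk8, Klk10, Klk11 and Klk13 are overlapped on the opposite strand by 2310002F09Rik, with 63 counts over p95HER2 tumours and 54 over EV tumours, and the strand option of the counting is not given.

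Klk7, the chymotrypsin-like kallikrein that cleaves skin desmosomes, gave a different answer with and without EV 1. It had 1, 22.5 and 49 counts in the lowest, median and highest p95HER2 tumour, against 76 counts in EV 1 and 0 to 2 in the other 9 EV tumours. Every p95HER2 tumour thus exceeded the EV median of 0, and EV 1 exceeded every p95HER2 tumour. Over all tumours the log2 fold change was 1.73 (SE 0.96, edgeR BH-adjusted p = 0.267). Without EV 1 the EV sum was 3 counts against 194 over p95HER2 tumours, a ratio per library total of 79.1 with a 95% counting interval from 26.7 to 387. Klk7 met the filter on low counts only through EV 1, since 8 libraries over 0.282 CPM were asked for and 7 p95HER2 libraries and EV 1 were over it. With no filter and without EV 1, a fit added after the data were seen, its log2 fold change was 5.85 (SE 0.67, edgeR BH-adjusted p = 7.27e-06).

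The keratinocyte markers are given beside these values. Their level, the mean log2(CPM + 0.5) of 16 genes, lay between -0.03 and 0.26 in p95HER2 tumours and between 0.15 and 2.38 in EV tumours, the highest being EV 1. Of the markers, 6 were tested and 2 fell, Krt79 and Sbsn, against 4.45% of all genes tested called lower. The summed CPM of the 16 ran from 33.6 to 60.6 in p95HER2 tumours and from 42.2 to 201 in EV tumours, or to 66.7 without EV 1. Calml3 was the most abundant of them, at 28.8 CPM in p95HER2 and 36.9 CPM in EV tumours, and was highest in EV 9. Calml3, Krt10, Krt79 and Sbsn had counts in every tumour, so outside EV 1 the level need not measure skin. Of the 16, Krt77, Krt2, Flg2 and Lce1a1 were at 0 counts in every p95HER2 tumour. Krt77, Flg2 and Lce1a1 were also at 0 in 9 of 10 EV tumours, all but EV 1, and Krt2 was at 0 in 8 of them. The level difference, p95HER2 minus EV, was -0.36 with EV 1 (exact permutation, BH-adjusted p = 0.0629) and -0.14 without it (exact permutation, BH-adjusted p = 0.00905). Klk5, the skin kallikrein next to Klk6 on the chromosome, had 11 counts in EV 1 and 0 in the other 17 tumours, p95HER2 tumours included. EV 1 had 9 counts of Klk6, against 10 in EV 8 and 0 to 3 in the other EV tumours. Without EV 1 the log2 fold change of Klk6, as a description, was 6.09 (SE 0.54). The part of skin content in the kallikrein values of the other tumours was not tested.

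**Figure D2:**
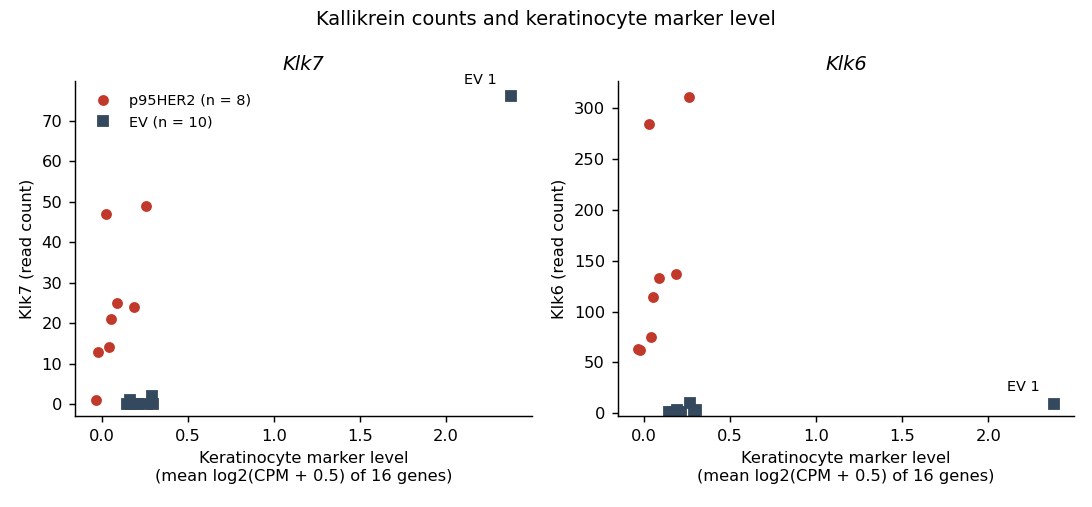
Read counts of Klk7 (left) and Klk6 (right) against the keratinocyte marker level, the mean log2(CPM + 0.5) of 16 genes, in p95HER2 (red circles, n = 8) and EV tumours (dark squares, n = 10). EV 1 stands alone at a level of 2.38, with 76 counts of Klk7 and 9 counts of Klk6.

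Klk10, whose human counterpart is often silenced in breast cancer, lies on the same strand before Klk8, with Klk9 between them, and did not pass. Its counts were 8, 12.5 and 44 in the lowest, median and highest p95HER2 tumour, against 6, 27 and 62 counts in EV tumours. The p95HER2 range in CPM lay within that of EV tumours, and 3 of 8 p95HER2 tumours lay above the EV median. It averaged 0.591 ± 0.401 CPM in p95HER2 tumours and 0.734 ± 0.503 CPM in EV tumours (log2 fold change -0.31 with SE 0.44; edgeR, BH-adjusted p = 0.704). Klk11 and Klk13, both kallikreins of epithelia, had 0 counts in all p95HER2 tumours and 2 counts each over all EV tumours. Both groups were thus under the limit of 3 counts, no fold is given, and neither gene was tested.

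The membrane-bound members St14, Prss8 and Hpn were abundant in both groups and did not pass the test. St14, which encodes matriptase, had 277, 288 and 324 CPM in the lowest, median and highest p95HER2 tumour, against 261, 290 and 310 CPM in EV tumours. The groups overlapped, and its log2 fold change was 0.06 (SE 0.04, edgeR BH-adjusted p = 0.444). Prss8, which encodes prostasin, an activator of the epithelial sodium channel, had 42.5, 50.5 and 54.5 CPM in p95HER2 tumours, against 34.7, 44.0 and 45.8 CPM in EV tumours. Of the p95HER2 tumours, 5 lay above all EV tumours, yet the log2 fold change of 0.20 (SE 0.07) missed the threshold (edgeR BH-adjusted p = 0.059). Leaving out p95HER2 5 or p95HER2 8 brought it past the threshold (edgeR BH-adjusted p = 0.0473 and 0.034, range over the 18 tumours left out in turn 0.034 to 0.115). Prss8 is overlapped on the opposite strand by Kat8, with 5722 counts over p95HER2 tumours and 8173 over EV tumours, so its counts are uncertain in part. Hpn, which encodes hepsin, had 59.4, 67.1 and 74.4 CPM in p95HER2 tumours, against 44.9, 60.8 and 65.8 CPM in EV tumours. Its log2 fold change was 0.19 (SE 0.07, edgeR BH-adjusted p = 0.111), with 7 of 8 p95HER2 tumours above the EV median.

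Leaving aside Klk6 and Tmprss11e, on whose difference the set was chosen, 1 of the other 6 tested members was called higher, Klk8, and none lower (edgeR quasi-likelihood, BH-adjusted p under 0.05). Over all 17123 genes tested, 10.2% were called, 5.73% higher and 4.45% lower. Klk8 was also the only one of the 6 whose CPM ranges did not overlap, against 0.677% of all genes tested with p95HER2 higher and 0.788% in either direction. The set was chosen with this contrast known, so nothing is read from these counts. Klk6 and Tmprss11e met the filter through the p95HER2 libraries alone.

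Per length, the membrane-bound trio stood far above the kallikreins in both groups. In CPM per kb of annotated exon, St14 was at 38.8 ± 2.23 in p95HER2 tumours and 37.3 ± 2.16 in EV tumours, Prss8 at 26.3 ± 2.48 in p95HER2 tumours and 22.9 ± 2.33 in EV tumours, and Hpn at 16.2 ± 1.18 in p95HER2 tumours and 14.2 ± 1.99 in EV tumours. Klk6 came next in p95HER2 tumours at 2.88 ± 1.91, ahead of Klk8 at 1.84 ± 1.17, which overlaps it within the SD. Tmprss11e at 0.527 ± 0.331, Klk10 at 0.431 ± 0.292 and Klk7 at 0.380 ± 0.258 CPM per kb did not differ beyond their spread. In EV tumours the order below Hpn was Klk10 at 0.535 ± 0.366 and Klk8 at 0.429 ± 0.138, again within the SD of each other, then Klk7 at 0.113 ± 0.344, Klk6 at 0.0523 ± 0.0652 and Tmprss11e at 0.000797 ± 0.00252 CPM per kb. Without EV 1 the order of that pair of kallikreins turned, with Klk6 at 0.0401 ± 0.0557 and Klk7 at 0.00463 ± 0.00975 CPM per kb over the other 9 EV tumours. Klk6 thus had the highest mean of the kallikreins in p95HER2 tumours and stood below Klk10 and Klk8 in EV tumours, with or without EV 1.

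The p95HER2 tumours differed widely among themselves in the kallikreins. The SD was 66.1% of the mean for Klk6, 62.8% for Tmprss11e, 63.5% for Klk8, 67.9% for Klk7 and 67.8% for Klk10, but 5.75% for St14, 9.44% for Prss8 and 7.28% for Hpn. In EV tumours it was 68.5% for Klk10 and 32.0% for Klk8. Median counts in p95HER2 tumours were 12.5 for Klk10 and 123.5 for Klk6, against 9743.5 for St14, so counting error weighs more on the kallikreins. Its part in their SD was not tested. The tumours p95HER2 6 and p95HER2 8 held the highest pair of values of Klk6, Klk7, Klk8 and Tmprss11e. Klk6 was at 8.51 CPM in p95HER2 6 and 9.10 CPM in p95HER2 8, and between 1.79 and 4.08 CPM in the other 6 p95HER2 tumours. Tmprss11e was at 3.39 and 3.63 CPM in the same tumours and between 0.769 and 2.09 CPM in the others. Klk8 was at 5.81 and 5.41 CPM there and between 1.32 and 2.77 CPM in the others. The membrane-bound trio did not share this order: St14 was highest in p95HER2 1, Prss8 in p95HER2 7 and Hpn in p95HER2 4. With p95HER2 6 and p95HER2 8 left out together, an alternative added after the data were seen, the log2 fold change of Klk8 was 1.53 with an SE of 0.23 (edgeR, BH-adjusted p = 0.000545). Those of Klk6 and Tmprss11e, as descriptions, were then 5.13 (SE 0.45) and 7.63 (SE 0.43). The ratio of Klk6 counts to Tmprss11e counts stayed between 1.82 and 3.09 over the p95HER2 tumours, and that of Klk6 to Klk8 between 1.17 and 2.65.

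Correlations among the p95HER2 tumours, which the rule for the set did not use, were computed on log2(CPM + 0.5) for 15 pairs (n = 8, exact permutation, two-sided, BH-adjusted over the 15). Klk6 followed Tmprss11e with Pearson r = 0.97 (exact permutation p = 0.000372, adjusted 0.00186; Spearman rho = 0.95, exact p = 0.00114). Since p95HER2 6 and p95HER2 8 stood apart, the value among the other 6 tumours is given beside it: r = 0.86 (exact p = 0.025, adjusted 0.0938). For Klk6 and Klk7, r was 0.94 (exact p = 4.96e-05, adjusted 0.000744; rho = 0.98, exact p = 0.000397) and 0.85 among the 6 (exact p = 0.00417, adjusted 0.0625). For Klk6 and Klk8, r was 0.93 (exact p = 0.00315, adjusted 0.00787; rho = 0.81, exact p = 0.0218) and 0.67 among the 6 (exact p = 0.172, adjusted 0.354). Each of these pairs thus passed with all 8 tumours and missed the adjusted threshold without p95HER2 6 and 8. With 6 tumours the exact test also has fewer arrangements, and no other pair of tumours was left out, so the part of these tumours and that of the smaller n cannot be told apart. Klk6 with Klk10 had r = 0.70 (exact p = 0.063, adjusted 0.105; rho = 0.60, exact p = 0.132), and with St14, Prss8 and Hpn r was -0.37, -0.32 and -0.37 (exact permutation adjusted p = 0.412, 0.449 and 0.412).

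Erbb2 itself varied from 122 to 231 CPM over the p95HER2 tumours, and p95HER2 8 and p95HER2 6 held its highest values too. The basal epithelial marker level, a mean log2(CPM + 0.5), was also highest in p95HER2 6 at 5.41 and p95HER2 8 at 5.16, then in p95HER2 4 at 4.96, and lay between 4.40 and 4.60 in the other p95HER2 tumours. Lama3, a marker in this level, had r = 0.95 with Klk6 within p95HER2 tumours, so the level is not separate from such genes. The part of the level in the relations with Erbb2 was not tested. Klk6 followed Erbb2 with r = 0.92 (exact permutation p = 9.92e-05, adjusted 0.000744; rho = 0.95, exact p = 0.00114), and r = 0.82 among the other 6 tumours (exact p = 0.0111, adjusted 0.0764). Tmprss11e followed it with r = 0.94 (exact p = 0.00104, adjusted 0.00379; rho = 0.83, exact p = 0.0154), and 0.86 among the 6 (exact p = 0.0347, adjusted 0.104). Klk8 followed it with r = 0.91 (exact p = 0.00126, adjusted 0.00379; rho = 0.90, exact p = 0.00456), and 0.85 among the 6 (exact p = 0.0153, adjusted 0.0764). Klk10, which did not pass the test between the groups, had r = 0.87 with Erbb2 within p95HER2 tumours (exact p = 0.00871, adjusted 0.0163) but rho = 0.71 (exact p = 0.0576, adjusted 0.108). Among the 6, its r was 0.89 (exact p = 0.0486, adjusted 0.122). That r leans on p95HER2 4, with the highest Erbb2 of the 6, 180 CPM. Klk10 was at 1.31 CPM there and between 0.242 and 0.370 CPM in the rest of the 6. Klk7 gave r = 0.84 (exact p = 0.00647, adjusted 0.0139; rho = 0.93, exact p = 0.00223) and 0.64 among the 6 (exact p = 0.189, adjusted 0.354). None of St14, Prss8 and Hpn passed, with r = -0.44, -0.53 and -0.27 (exact permutation adjusted p = 0.384, 0.272 and 0.509). The species of the transgene is not known here, so Erbb2 CPM need not be its level.

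**Figure D3:**
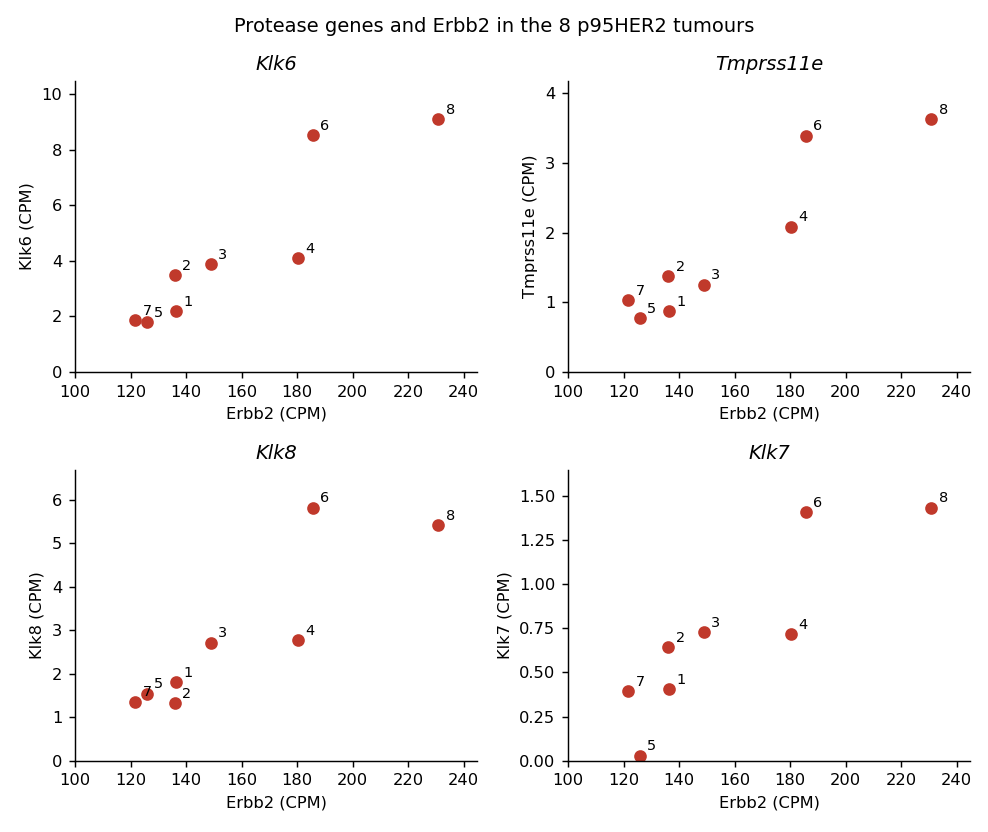
CPM of Klk6, Tmprss11e, Klk8 and Klk7 against CPM of Erbb2 in the 8 p95HER2 tumours, numbered by tumour; the Erbb2 axis does not start at 0. Tumours 6 and 8 lie highest in all 4 panels.

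Across all 18 tumours, likeness to Klk6 was taken as r of log2(CPM + 0.5) among 12104 genes kept by a floor on mean level. The genes most like Klk6 were Dynap (r = 0.990), Lama3 (0.985), Erbb2 (0.983), Hmga2 (0.976) and Prl2c3 (0.973). The same 5 genes were the most like Tmprss11e, led by Dynap (r = 0.988) and Erbb2 (0.985). All 18 tumours share the group difference on which the members were chosen, so these values describe the likeness and are not tested. Within the 8 p95HER2 tumours, r with Klk6 was 0.97 for Dynap and 0.95 for Lama3, which encodes a chain of the basement membrane protein laminin-332, both given as descriptions.

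The kallikrein members lie in a single cluster, with Klk12 and Klk9 among them. The cluster on chromosome 7 holds 37 genes named as kallikreins or their pseudogenes in the annotation, and 20 had no count in any tumour. Of the 20 kallikrein genes outside the set, none had enough counts to be tested. The most abundant were Klk1, with 33 counts over p95HER2 tumours and 80 over EV tumours, and Klk14, with 2 counts over p95HER2 tumours and 20 over EV tumours. Reads of the near-identical Klk1b genes cannot always be assigned to a single gene, so their counts are uncertain. Among 34 tested neighbours with a start within 1 Mb of a kallikrein member, none was called higher and 1 was called lower, Il4i1, an amino acid oxidase gene of immune cells, which fell by 0.48 on the log2 scale (SE 0.13, edgeR BH-adjusted p = 0.0266). That call ended without p95HER2 1, p95HER2 4, EV 7 or EV 9, the highest p being 0.0517 (edgeR, BH-adjusted). The median log2 fold change of these neighbours was -0.07, against -0.01 over all genes tested. Of all genes tested, 5.73% were called higher and 4.45% lower.

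Around Tmprss11e, none of 6 tested neighbours was called, with a median log2 fold change of -0.04. Over all genes tested, 10.2% were called. Ythdc1, the next gene on one side, had 22263 counts over p95HER2 tumours and 30842 over EV tumours (log2 fold change -0.03 with SE 0.05; edgeR, BH-adjusted p = 0.734). On the other side lies Tmprss11b, a paralog, which had 3 to 13 counts in p95HER2 tumours and 0 to 4 in EV tumours, too few for the filter. Its sums of 63 counts in p95HER2 tumours and 10 in EV tumours gave a ratio per library total of 8.56, with a 95% counting interval from 4.36 to 18.7. With no filter it was called (log2 fold change 2.93 with SE 0.62; edgeR, BH-adjusted p = 0.00469).

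**Figure D4:**
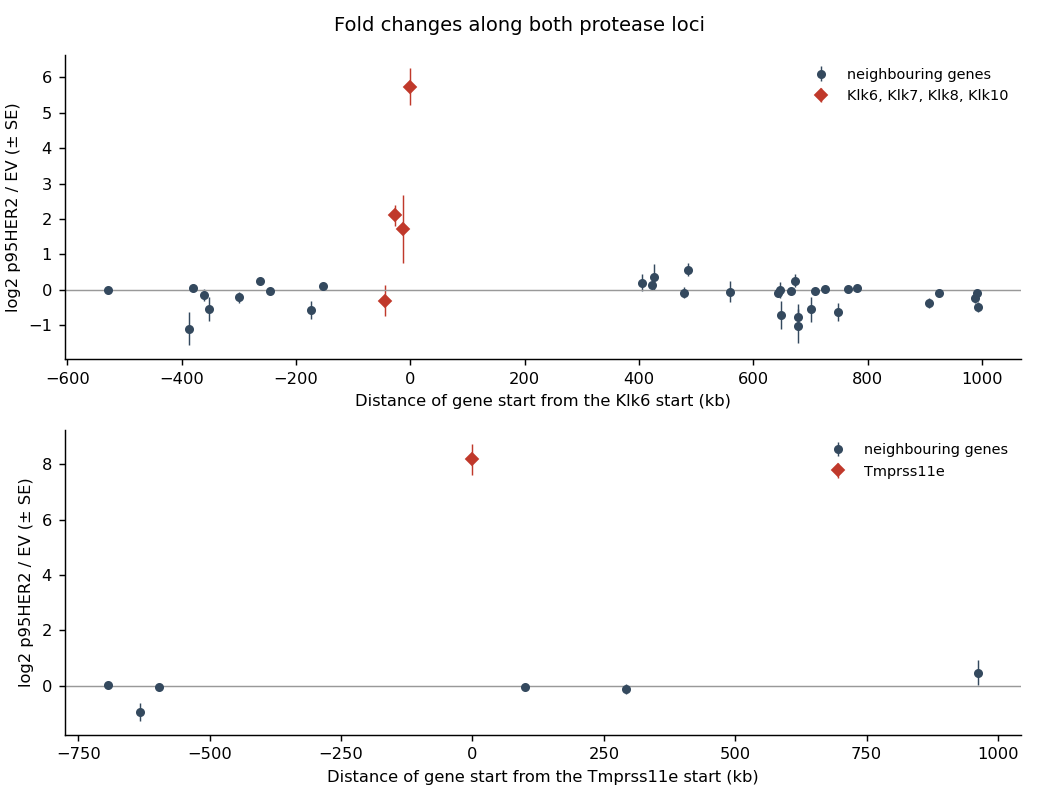
Log2 fold change, p95HER2 over EV, with its SE, against the distance of each gene start from the start of Klk6 (top) or Tmprss11e (bottom) in kb; members are red diamonds and tested neighbours dark circles. Klk6 at 5.73 and Tmprss11e at 8.17 stand far above the neighbours, whose medians are -0.07 and -0.04.

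Of 20 other membrane-bound serine proteases and close relatives in the table, 5 were tested and 1 rose. This was Prss22, which encodes tryptase epsilon of airway and other epithelia, at 2.88 ± 2.0 CPM in p95HER2 tumours and 0.784 ± 0.800 CPM in EV tumours (log2 fold change 1.87 with SE 0.43; edgeR, BH-adjusted p = 0.0107). Its counts ran from 45 to 238 in p95HER2 tumours, against 111 in EV 1 and 12 to 27 in the other EV tumours. Without EV 1 the groups did not overlap and the log2 fold change was 2.42 (SE 0.32, edgeR BH-adjusted p = 0.000133). As with Klk6, the highest values, 7.13 and 4.59 CPM, were those of p95HER2 6 and p95HER2 8. Tmprss13, Tmprss2, Tmprss4 and Tmprss6 did not pass, with log2 fold changes of -0.16, -0.27, 0.50 and 0.48 (edgeR BH-adjusted p = 0.0646, 0.209, 0.0634 and 0.445). The list's median was 0.48, against -0.01 over all genes tested, of which 5.73% were called higher.

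Among the inhibitors of these proteases, 5 of 6 were tested and 2 rose. Serpine2, which encodes protease nexin-1, an inhibitor of trypsin-like proteases, rose to 1222 ± 89.2 CPM in p95HER2 tumours, against 1064 ± 75.1 CPM in EV tumours, a log2 difference of 0.20 (SE 0.05; edgeR BH-adjusted p = 0.0151). Spink12, a Kazal-type inhibitor gene, was at 0.673 ± 0.387 CPM in p95HER2 tumours and 0.239 ± 0.139 CPM in EV tumours (log2 fold change 1.48 with SE 0.34; edgeR, BH-adjusted p = 0.00969). Spint1 and Spint2, which encode the matriptase inhibitors HAI-1 and HAI-2, did not pass, with log2 fold changes of 0.04 and 0.06 (SE 0.05 for both, edgeR BH-adjusted p = 0.707 and 0.438). Spink5, which encodes LEKTI, the skin inhibitor of kallikreins, was at 1.26 ± 0.578 CPM in p95HER2 tumours and 2.35 ± 1.23 CPM in EV tumours (log2 fold change -0.90 with SE 0.29; edgeR, BH-adjusted p = 0.0535), with its highest EV value, 5.61 CPM, in EV 1. The median of the inhibitors was 0.06, against -0.01 over all genes tested, of which 5.73% were called higher.

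Of 20 substrates and receptors of these proteases, 11 were tested and 1 rose, Plau, which encodes urokinase, a protease that matriptase can activate. It was at 28.5 ± 9.64 CPM in p95HER2 tumours and 19.1 ± 2.85 CPM in EV tumours (log2 fold change 0.58 with SE 0.15; edgeR, BH-adjusted p = 0.0193). F2rl1, which encodes the protease-activated receptor PAR2, was at 41.9 ± 8.01 CPM in p95HER2 tumours and 36.3 ± 12.7 CPM in EV tumours and did not pass (log2 fold change 0.21 with SE 0.17; edgeR, BH-adjusted p = 0.488). Epcam, an adhesion protein cut by matriptase, was at 659 ± 23.9 CPM in p95HER2 tumours and 638 ± 43.9 CPM in EV tumours and did not pass (edgeR BH-adjusted p = 0.513). The median over the 11 was 0.15, against -0.01 over all genes tested, of which 5.73% were called higher.

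**Figure D5:**
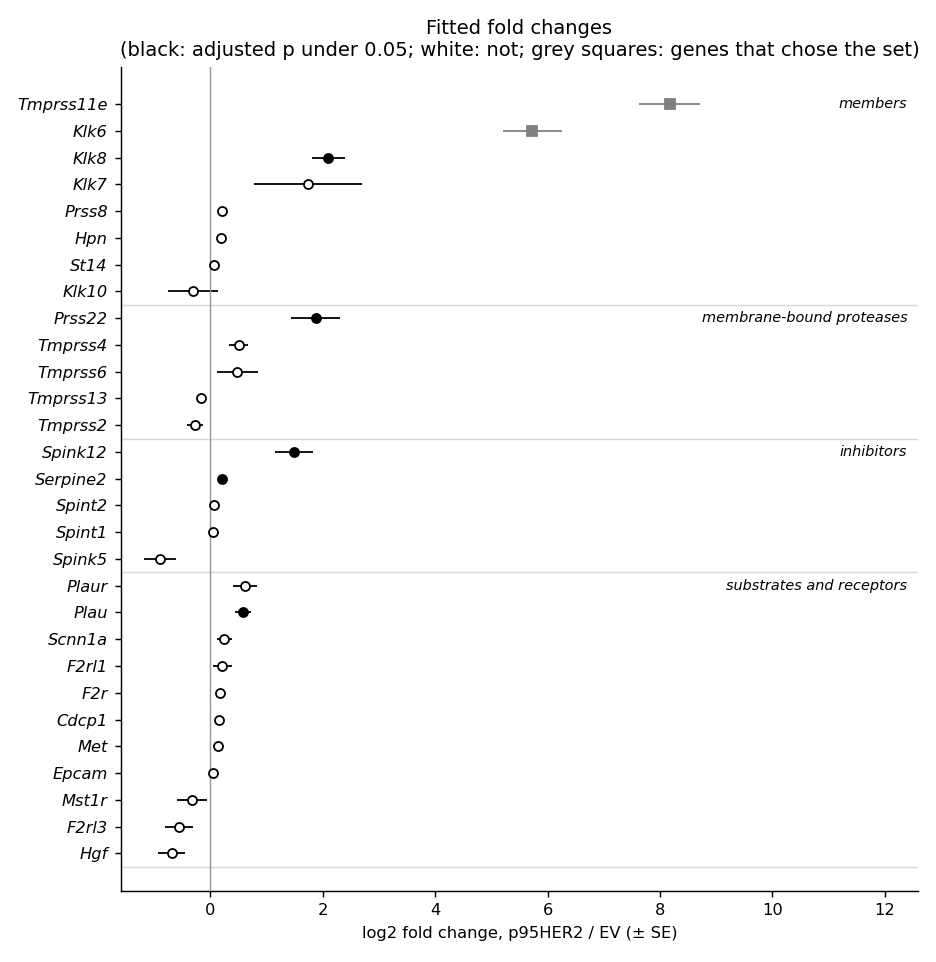
Fitted log2 fold change, p95HER2 over EV, with its SE, for the tested members and the tested genes of the protease, inhibitor and substrate lists. Black marks genes with an adjusted p under 0.05, white those without, and grey squares Klk6 and Tmprss11e, on whose values the set was chosen; Prss22, Spink12, Serpine2 and Plau are the black points outside the members.

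Epithelial content was compared as well, since the members are epithelial genes. The basal epithelial level, a mean over 12 markers, was 4.75 ± 0.373 in p95HER2 tumours and 4.21 ± 0.344 in EV tumours (difference 0.55, exact permutation, BH-adjusted p = 0.0273 over 5 marker lists), and the call ended without p95HER2 4, 6 or 8 (exact permutation adjusted p = 0.0537, 0.0625 and 0.0563). Its summed CPM ran from 1609 to 1895 in p95HER2 tumours and from 1220 to 1751 in EV tumours, and no basal marker was at 0 in any tumour. Of its 12 genes 5 rose, Lama3 among them, and 1 fell, against 5.73% called higher and 4.45% lower over all genes tested. The luminal level was 6.60 ± 0.153 in p95HER2 tumours and 6.60 ± 0.176 in EV tumours (exact permutation adjusted p = 0.926). Markers of salivary acini averaged 2.19 ± 0.345 in p95HER2 tumours and 2.25 ± 0.287 in EV tumours (exact permutation adjusted p = 0.863). Of the hepatocyte markers, which matter for hepsin, the summed CPM was 0.116 to 0.449 in p95HER2 tumours and 0.0823 to 3.50 in EV tumours, with none of the 8 genes over the filter. Apob and Serpina1a, both in that list, were at 0 in all p95HER2 tumours. Serpina1a was also at 0 in all 10 EV tumours, and Apob in 8 of them. With the luminal or the keratinocyte level as a covariate, Klk8 was called again. The part of basal epithelial content in the kallikrein values was not tested.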

How the data were processed

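RNA of 8 p95HER2 and 10 EV tumours was sequenced from directional mRNA libraries, per the labels' protocols. The deposited table holds unnormalized read counts for each tumour, keyed by Ensembl identifiers; STAR 2.5, HTSeq 0.6.1 and mm10 are named, per the submitters' processing notes. The sources used here do not state the strand option of the counting or its annotation release. Symbols, coordinates and exon lengths came from GENCODE M21 of the same build (54495 of 54532 identifiers).

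Genes were kept by filterByExpr (minimum count 10, minimum total 15), scaled by TMM and tested with edgeR 4.0.16 (robust quasi-likelihood F-test, R 4.3.3), p95HER2 against EV, with Benjamini-Hochberg (BH) adjustment over 17123 genes; a call is an adjusted p under 0.05. CPM are mean ± SD. The gene test was tested on simulated data. Alternatives used RLE scaling, library totals, other filters, DESeq2 1.42.0, limma 3.58.1 (voom), marker levels as covariates and each tumour left out. Ratios of summed counts have exact conditional binomial intervals.

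Members and lists were chosen with earlier results of these data known. Named were all members, called list genes of smallest adjusted p (up to 4 a list; else up to 2 of highest level), called neighbours and the 5 most similar genes; others named were chosen after their values were seen.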

Additional observations from a re-analysis of the deposited data

Results flagged for a closer look

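Of 42 sets of values, each a measure in 1 group, 8 held a single tumour farther from the rest than Dixon's 95% limit. For normally distributed values, chance marks about 1 set in 20. In EV 1 these were Klk7 at 2.07 CPM, Klk5 at 0.299 CPM, Prss22 at 3.02 CPM, Tmprss11e at 0.0272 CPM (a single count), the keratinocyte marker level at 2.38 and the basal epithelial marker level at 5.11. In p95HER2 4 it was Spink12 at 1.61 CPM. In EV 4 it was the hepatocyte marker level at -0.40, where Apoa1 had 96 counts and Apob 35 counts. Tmprss11e and Klk5 were at 0 in every EV tumour but EV 1, where any count is marked by this rule. The rate of 1 in 20 need not hold for such values.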

How the results depend on the processing

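Klk8 was called under every alternative run. Klk6 and Tmprss11e chose the set, so their log2 fold changes are descriptions, and nothing is read from their share in the counts of members. The filter at 1 CPM left Tmprss11e, Klk7 and Klk10 untested. Klk7 turned to a call at 4.38 with limma voom, and at 6.43 and 3.68 on the log2 scale with the keratinocyte or luminal level as a covariate. It also did so at 5.85 with no filter and without EV 1. EV 1 held the highest keratinocyte and luminal levels, 2.38 and 7.01, so the covariate fits are not separate from leaving it out. Prss8 turned to a call at 0.20 with DESeq2 and 0.19 with the luminal level, where 5 members were called, Klk6 and Tmprss11e included. With each tumour left out in turn, log2 fold changes ranged from 5.49 to 6.16 for Klk6, 1.51 to 1.91 for Klk7 (no value without EV 1), 1.86 to 2.21 for Klk8, -0.58 to -0.09 for Klk10, 7.95 to 9 for Tmprss11e, 0.04 to 0.07 for St14, 0.17 to 0.23 for Prss8 and 0.15 to 0.21 for Hpn; 3 to 4 members were called higher, again with those genes included.

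Counts of other genes moved more. Over all genes, 1259 were called lower with the keratinocyte level as a covariate and 489 without p95HER2 2, against 762 (792 to 1201 called higher and 489 to 1130 lower with a tumour left out). Of the other membrane-bound proteases, 2 were called higher with no filter or DESeq2, and 1 lower with DESeq2 or either covariate (1 to 2 higher, 0 to 1 lower with a tumour left out). Of the inhibitors, 1 was called higher with the filter at 1 CPM, and 1 lower with that filter, DESeq2 or voom (0 to 1 lower with a tumour left out). Of the substrates, 3 were called higher with DESeq2 or voom and 4 with either covariate, and 1 lower with DESeq2 (1 to 3 higher, 0 to 1 lower with a tumour left out). Of the neighbours of the kallikreins, 2 were called higher with DESeq2 and 1 with voom, and 0 were called lower with no filter, 3 with voom, 4 with the keratinocyte level and 2 without p95HER2 6 and 8 (0 to 1 higher, 0 to 3 lower with a tumour left out). Near Tmprss11e, 1 was called higher with no filter (Tmprss11b), and 1 lower with DESeq2, voom or without p95HER2 6 and 8 (0 to 1 in each direction with a tumour left out). The cause was not tested.

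Marker level differences with a tumour left out ranged from -0.39 to -0.14 for keratinocyte (called in 10 of these fits, all without an EV tumour), 0.45 to 0.65 for basal, -0.05 to 0.04 for luminal, -0.16 to -0.01 for salivary and -0.06 to 0.00 for hepatocyte markers. Without the 2 tumours farthest from the median, r was 0.85, 0.67 and 0.86 for Klk6 with Klk7, Klk8 and Tmprss11e, 0.82, 0.64, 0.85, 0.89 and 0.86 for Erbb2 with Klk6, Klk7, Klk8, Klk10 and Tmprss11e, none of them passing after adjustment, and turned to 0.36 for Hpn. No paired analysis was run, since the labels give no pairing of p95HER2 with EV tumours. Klk11, Klk13 and 20 other kallikreins had too few counts for a test.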
